A study of Homo sapiens with 17 samples.

Results

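The histone genes were taken from the count table by the start of their symbol. Rows beginning with HIST1H, HIST2H, HIST3H or HIST4H are called HIST rows here, and rows beginning with H1F, H2AF or H3F are called variant rows. Of 23368 rows in the table, 91 met the rule: 72 HIST rows, 17 variant rows, the pseudogene row HIST1H2APS1 and the antisense row H1FX-AS1. The variant rows include H3F3AP4, a pseudogene by its symbol. The samples were HEK293T cells, a human embryonic kidney line, either unmodified (WT) or given siRNA to deplete TDP43 (siTDP43). TDP43 binds RNA and is the product of TARDBP. Polyadenylated RNA, selected on oligo(dT) beads in every sample, was studied by acRIP-seq: an antibody to N4-acetylcytidine (ac4C), a modified RNA base, draws acetylated RNA out of the pool before sequencing. The 17 libraries were 3 WT input, 3 WT IP (the ac4C pull-down), 2 WT IgG (the control antibody), 3 siTDP43 input, 3 siTDP43 IP and 3 siTDP43 IgG. The WT labels name no control siRNA, and each genotype forms its own set of libraries, so loss of TDP43, transfection and any difference between cultures cannot be told apart.

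Core histones H2A, H2B, H3 and H4 form the nucleosome and linker histone H1 binds the DNA between nucleosomes. Replication-dependent histone genes lie in clusters, are transcribed in S phase and give mRNAs that normally end in a conserved stem-loop bound by SLBP rather than in a poly(A) tail. Histone variants such as H3.3, H2A.Z and macroH2A come from ordinary polyadenylated mRNAs and are made throughout the cell cycle. Since the RNA was selected by its poly(A) tail, the HIST rows here hold only what was retained by that selection, and reads of a stem-loop-ended mRNA and of a polyadenylated form of the same gene cannot be told apart in a gene count.

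The 3′ ends show the difference between the classes. The stem-loop was searched as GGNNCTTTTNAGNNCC on the transcribed strand, in the last 100 bases of each row's annotation and the 50 bases after it, in the GRCh37 (hg19) genome. It was found in 63 of 72 HIST rows (87.5%), in 0 of 17 variant rows and in 64 of all 23368 rows (0.274%). The poly(A) signal AATAAA was present in the last 50 bases of 8.33% of HIST rows, 41.2% of variant rows and 55.9% of all rows, and allowing ATTAAA as well gave 8.33%, 70.6% and 68.7%. The next 6 sequences are stem-loops with 6 bases of flank on each side, with the stem-loop in capitals, from the most counted H4, H1 and H2B rows, from a variant and from a pair of H2B rows whose annotation runs on past the stem-loop. The capitals span chr6:26104545-26104560 (plus strand) in HIST1H4C, chr6:26055972-26055987 (minus) in HIST1H1C, chr6:27114145-27114160 (minus) in HIST1H2BK, chr11:118965608-118965623 (minus) in H2AFX, chr1:149857738-149857753 (minus) in HIST2H2BE and chr6:26158815-26158830 (plus) in HIST1H2BD.
HIST1H4C: cccaaaGGCCCTTTTCAGGGCCgctcac
HIST1H1C: ccaaaaGGCTCTTTTCAGAGCCaccact
HIST1H2BK: cccaaaGGCTCTTTTAAGAGCCacttaa
H2AFX: cacaaaGGCCCTTTTAAGGGCCaccacc
HIST2H2BE: tccaaaGGCTCTTTTCAGAGCCacccac
HIST1H2BD: cccaaaGGCTCTTTTAAGAGCCacgcat

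The core of the HIST1H4C sequence was found in 10 HIST rows, and that of HIST1H1C, which differs within the stem, was the most frequent, in 41 rows. In 62 HIST rows the annotation ended within 20 bases after a stem-loop, at a median of 5 bases. In 7 HIST rows the stem-loop lay farther from the end (HIST2H2BA, HIST2H2BF, HIST2H2BC, HIST2H2BE, HIST1H2BD, HIST1H2AE and HIST1H2BK), and in 3 no match was found (HIST1H3E, HIST1H2BI and HIST1H4L). HIST2H2BE continued for 1728 bases after its stem-loop, and the stem-loop of HIST1H2BK lay between its annotated exons. H2AFX, which encodes the H2A.X that is phosphorylated at DNA breaks, carried a stem-loop inside its only exon, 1023 bases before the annotated end. The next 6 sequences are 30-base windows around the poly(A) signal, in capitals, near the annotated 3′ end of the variants H2AFZ, H3F3B and H1FX, to which the results below return, and of the 3 H2B rows above. They span chr4:100869247-100869276 in H2AFZ, chr17:73772517-73772546 in H3F3B, chr3:129033618-129033647 in H1FX, chr1:149856015-149856044 in HIST2H2BE and chr6:27106080-27106109 in HIST1H2BK, all on the minus strand, and chr6:26171541-26171570 on the plus strand in HIST1H2BD.
H2AFZ: gtggataagttcAATAAAggtcatatccca
H3F3B: ggatgagactaaAATAAAatttttgaagtt
H1FX: ttttttgggcacAATAAAgcgtttaaacct
HIST2H2BE: gctattgttattAATAAAgttaccaattaa
HIST1H2BD: aaagttataattAATAAAatctgcggagaa
HIST1H2BK: gccctgtaccttAATAAAtttgtatgcctt
HIST1H2BK, HIST2H2BE and HIST1H2BD held both kinds of 3′ end sequence in their gene region, as did, among other rows, H2AFX, whose signal was an ATTAAA near its annotated end.

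The classes also differed in size and composition. HIST rows had a median exon length of 467 bases and a median GC content of 58.6%, variant rows 1551 bases and 53.1%, and all rows 2491.5 bases and 49.5%. HIST1H4C lies at chr6:26104176-26104565 on the plus strand as 1 exon, H1FX at chr3:129033614-129035120 and H2AFX at chr11:118964585-118966177, both on the minus strand as 1 exon. H1FX (GC 68.6%) and H2AFX (GC 66.9%) had the highest GC content of the variant rows that were measured. For 52 of 72 HIST rows at least 99% of the 100-base windows occurred once in the genome. HIST1H4J had 10.5% such windows and HIST2H2BC, a pseudogene by its current RefSeq name (H2BC20P), 22.6%, so reads of near-identical copies could be lost or misplaced for these.

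Total counts per library were 19615316 to 36583436 in the WT input and IP, 8610070 to 31030950 in the siTDP43 input and IP, 9022250 to 9466855 in WT IgG and 3013989 to 3436811 in siTDP43 IgG, the shallowest group. Of the members' counts between 1 and 20, 80.3 to 96% were even in each group, as would follow if each read of a pair was counted by itself. Intervals and floors on such counts cover counting error only. The level of TARDBP was 153 ± 3.86 CPM (SD, n = 3; CPM is the count scaled by library size with TMM factors) in the WT inputs and 102 ± 3.67 CPM (SD, n = 3) after knockdown, a log2 change of -0.57 (SE 0.045, edgeR adjusted p 6.55e-13). LIN28B, KRT18 and VIM, which the line expresses, were at 27.8 CPM or more in every input library, PAX2 was at most 1.37 CPM, and of the markers of other cell types PTPRC was at 0 in every input library while COL1A1 reached 7.74 CPM. The labels do not say whether replicates came from separate cultures, so p-values measure the spread between these samples, which may be technical.

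Few HIST rows were measured at all. Of the 72, 23 had no count in any of the 17 libraries, 4 had a count in all 17, and 22 had over 100 counts in all libraries together. Of the 23 without a count, 7 shared most of their exon bases with another row, which keeps reads from being assigned, and 14 were unique in sequence and shared no exon. Of the 17 variant rows, 6 had no count in any library: H3F3AP4, H1FNT, H1FOO, H2AFB1, H2AFB2 and H2AFB3. H3F3A had 2 counts in all, and 98% of its exon bases are also assigned to H3F3AP4 in the table, so H3.3 was measured only through H3F3B. HIST rows with a count in at least 1 library numbered 45 in WT input, 24 in WT IP, 26 in WT IgG, 42 in siTDP43 input, 20 in siTDP43 IP and 15 in siTDP43 IgG.

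The HIST rows together took 0.012 to 0.0126% of all counts in the WT input libraries and 0.00961 to 0.0105% in the siTDP43 input libraries. The WT pull-downs gave 0.0106 to 0.0111% with the ac4C antibody and 0.0378 to 0.0414% with IgG. It was 0.0288 to 0.0328% in siTDP43 IP and 0.0328 to 0.0371% in siTDP43 IgG. Thus WT IP lay with the inputs, whereas siTDP43 IP lay below or at the edge of siTDP43 IgG and above every input library. Most HIST counts in siTDP43 IP were of the single row HIST1H4C. Without it, siTDP43 IP no longer lay above every input library. Variant rows took a larger share, 0.422 to 0.429% of WT input counts and 0.474 to 0.492% of siTDP43 input counts. In IP it was 0.312 to 0.334% for WT and 0.371 to 0.389% for siTDP43, and in IgG 0.364 to 0.376% and 0.292 to 0.302%. The ratio of variant to HIST counts was 34 to 35.2 in WT input, 46.9 to 49.3 in siTDP43 input, and 7.86 to 9.94 across the 5 IgG libraries.

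HIST1H4C alone made up much of the HIST total, with 40.6 to 41.3% of it in WT input. In the WT pull-downs its part was 52.5 to 56.8% (IP) and 77 to 81.1% (IgG). The siTDP43 libraries had 31 to 34.3% for input, 77.4 to 81.3% for IP and 63.3 to 70.2% for IgG. In the inputs, H1 rows made up 12.2 to 13.2% of HIST counts in WT and 3.28 to 4.30% in siTDP43. H2B rows made up 27.3 to 27.7% in WT and 43.1 to 47.6% in siTDP43. These shares are descriptions over 3 libraries each, with no test.

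**Figure D1:**
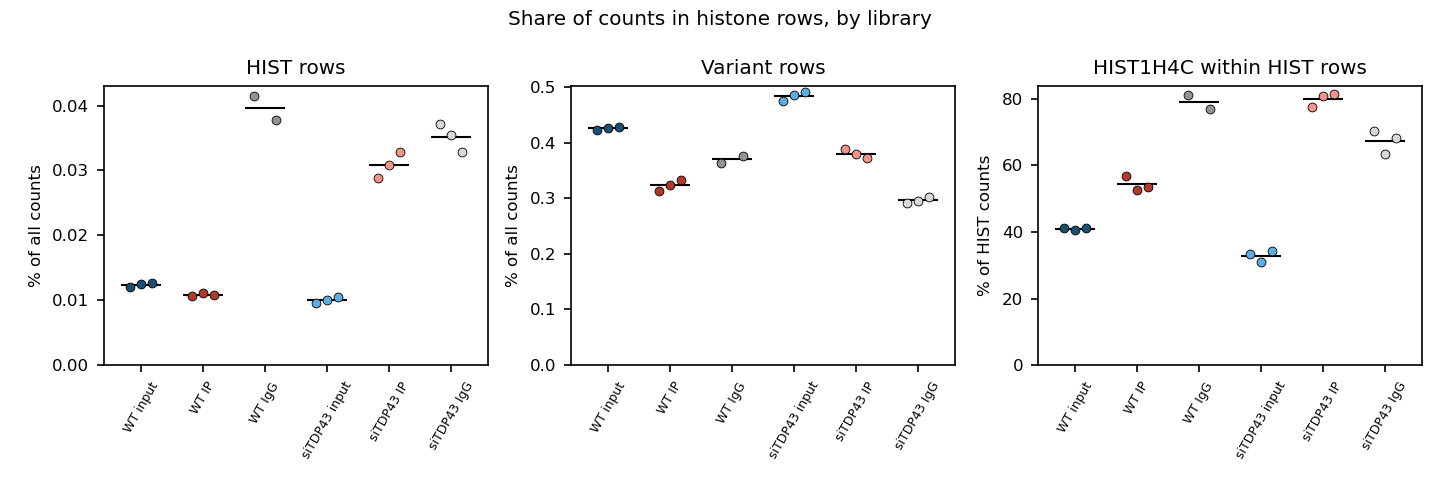
Share of all counts in the 72 HIST rows and in the 17 variant rows, and share of HIST counts in HIST1H4C, in percent, for each of the 17 libraries (points) with the group mean (line). HIST counts are a small share everywhere and are highest in both IgG groups and in siTDP43 IP, where most of them are of HIST1H4C.

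Levels were compared between genes as CPM per kilobase of exon. H2AFZ, which encodes the replication-independent variant H2A.Z, was the highest variant row in every group, at 1859 ± 42.8 CPM per kb in WT input and 2407 ± 59.8 in siTDP43 input (SD, n = 3 each). H3F3B followed at 414 ± 1.68 and 724 ± 27.1, and H1F0, the linker histone H1.0 of slowly dividing cells, at 271 ± 8.56 and 123 ± 3.33. HIST1H4C was the highest HIST row, at 120 ± 3.67 and 83.1 ± 7.28. HIST1H2BK came next in WT input at 28.4 ± 0.855, followed by HIST3H2A at 23.0 ± 0.999 and HIST1H1C at 16.3 ± 0.389.

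**Figure D2:**
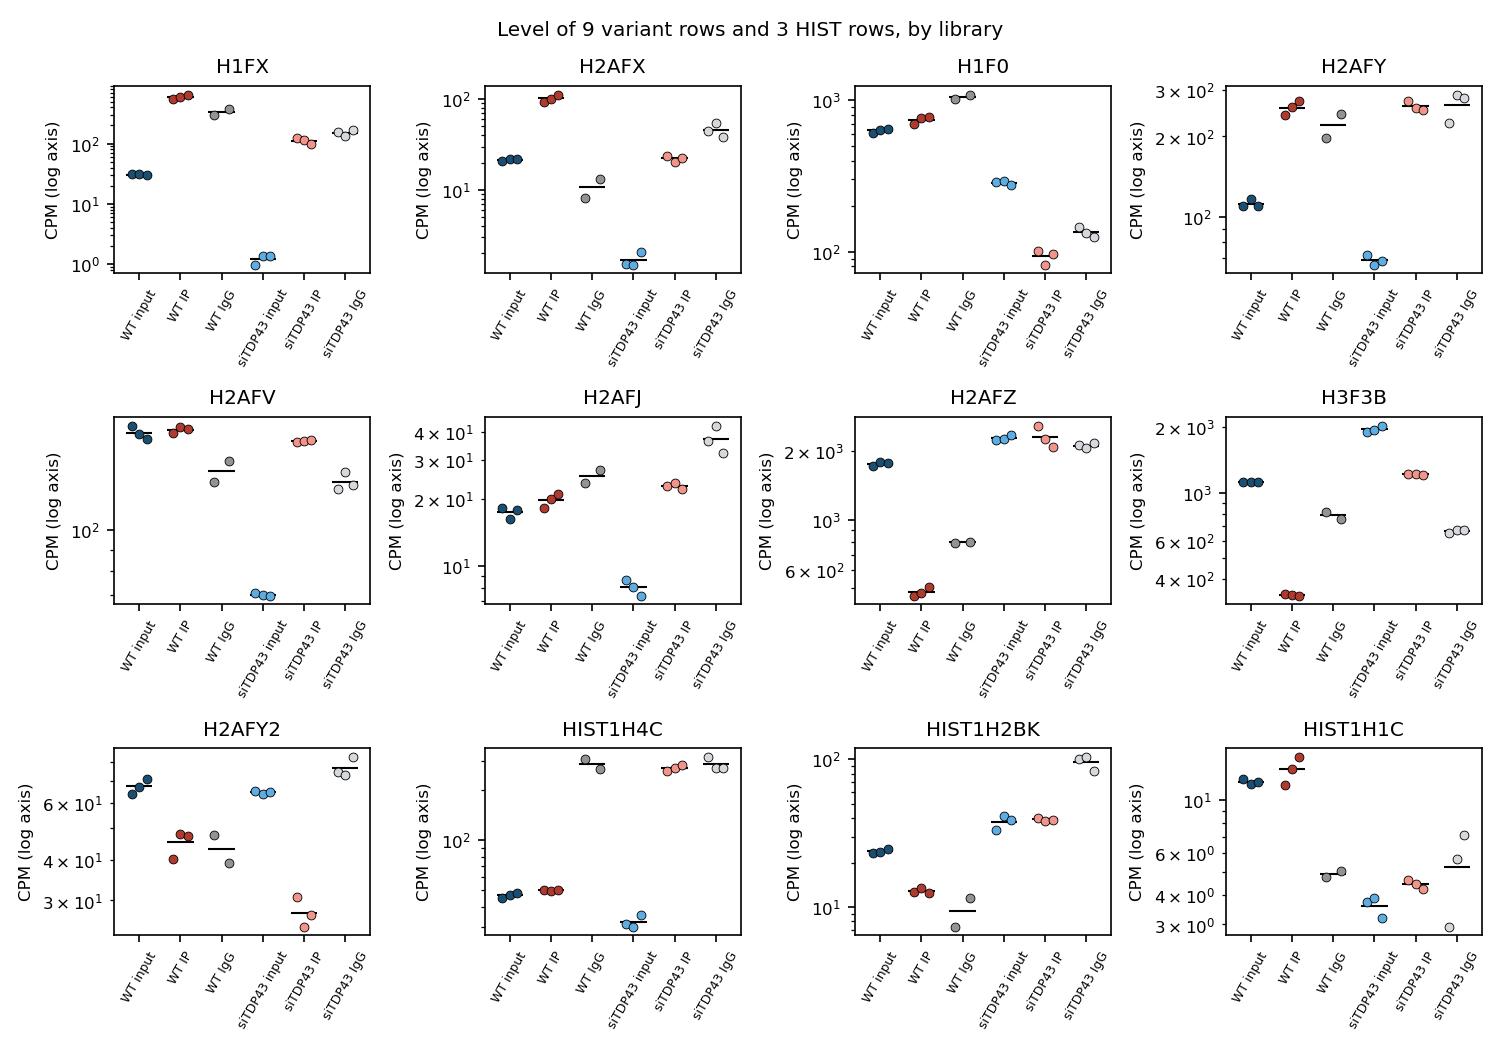
Level in CPM (log axis, ranges differ between panels) of 9 variant rows and 3 HIST rows in each of the 17 libraries (points), with the group mean (line). H1FX and H2AFX are lowest in siTDP43 input, and HIST1H4C lies at or below 50.3 CPM in the inputs and WT IP and at or above 261 CPM in the other 3 groups.

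The first comparison asked which histone mRNAs changed in abundance in the siTDP43 input. In it, H1FX, HIST1H1E and H2AFX fell most, of which HIST1H1E was tested only through its WT counts, as said below. A gene is called here at an adjusted p under 0.05. In 10 variant rows tested, 2 were higher and 6 lower, and in 23 HIST rows tested, 2 were higher and 6 lower, while 38.6% of all 14036 genes tested were called higher and 40.6% lower. Among the HIST rows tested, 8.70% were called higher and 26.1% lower. The median log2 change was -0.90 over the variant rows, -0.24 over the HIST rows and -0.05 over all genes. With GC and length trends removed, 8 HIST rows were called higher. Most genes were called in this comparison, so a call by itself sets no histone gene apart. In bulk RNA, fewer cells in S phase and less RNA per cell cannot be told apart.

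H1FX, which encodes the linker histone H1.10, was at 30.9, 31 and 30 CPM in the WT input libraries and at 0.978, 1.35 and 1.38 CPM in the siTDP43 input libraries. The groups lay far apart, with a log2 change of -4.64 (SE 0.13, edgeR adjusted p 5.58e-24), or 24.9-fold lower. H2AFX went from 20.8, 21.7 and 21.9 CPM to 1.51, 1.5 and 2.06 CPM, a log2 change of -3.66 (SE 0.14, adjusted p 7.34e-21). When a trend with GC content was removed from each library, H1FX moved to -3.10 and H2AFX to -2.35, both still called. H1F0 went from 610, 639 and 648 CPM to 289, 291 and 277 CPM (log2 change -1.14, adjusted p 5.27e-22). The other variants that fell were H2AFV, a second H2A.Z gene (-1.28), H2AFJ (-1.11) and H2AFY, which encodes macroH2A1 (-0.70).

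The replication-independent H3.3 gene H3F3B rose from 1125, 1120 and 1116 CPM to 1894, 1945 and 2038 CPM, a log2 change of 0.81 (SE 0.03, adjusted p 1.6e-19). H2AFZ rose from 1713, 1784 and 1783 CPM to 2233, 2262 and 2342 CPM (log2 change 0.38, adjusted p 1.27e-11). The libraries of the 2 groups did not overlap for either gene. H2AFY2, the macroH2A2 gene, was at 67.3 ± 3.42 CPM in WT and 64.7 ± 0.598 CPM in siTDP43 (log2 change -0.05, adjusted p 0.365). Total count scaling gave -0.14, called lower, and removing the GC trend gave 0.19, called higher. H3F3C had 21 to 34 counts per library and a log2 change of 0.56 (adjusted p 0.191).

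Among HIST rows, the linker histone row HIST1H1E fell most. It had 62, 91 and 66 counts in WT input and 4, 8 and 0 in siTDP43 input, a log2 change of -3.83 (SE 0.50, adjusted p 4.45e-08). HIST1H1C had 371, 460 and 418 counts against 118, 98 and 90 (log2 change -1.73, SE 0.14, adjusted p 1.33e-12). HIST1H3B (-2.60), HIST1H4J (-1.40), HIST2H2BE (-0.87) and HIST1H4C (-0.52, adjusted p 3.6e-08) also fell. HIST1H1E, HIST1H3B and HIST1H4J did not meet the low-count filter on their siTDP43 counts. They were tested through WT input, where they were high, so these calls are descriptions only. With GC and length trends removed together, HIST1H4C was at -0.11 and HIST1H4J at -0.32, neither called.

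HIST1H2BK, one of the H2B rows that reaches past its stem-loop to a poly(A) signal, rose from 23.2, 23.7 and 24.6 CPM to 33.4, 41.1 and 38.8 CPM (log2 change 0.66, SE 0.08, adjusted p 4.87e-09). The other HIST row called higher, HIST2H2BC, had 5, 8 and 14 counts against 16, 16 and 18 (log2 change 1.19, adjusted p 0.0444). It did not meet the low-count filter on its WT counts and was tested through siTDP43 input, where it was high, so this call is a description only. The call was lost under 10 of 15 other settings. Among these were the fits without WT input replicate 1 or 2 or any one siTDP43 input replicate, at log2 values of 0.98 to 1.30. HIST3H2A had 333, 470 and 394 counts against 332, 212 and 282 (log2 change -0.24, adjusted p 0.0665). It was called lower with total count scaling (-0.33) and without siTDP43 input replicate 1 (-0.30), and higher with the GC trend removed (0.94). The other 2 H2B rows shown with both 3′ end sequences gave -0.87 for HIST2H2BE and -0.22 (adjusted p 0.518) for HIST1H2BD.

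Other genes of histone supply moved in both directions in the input, as did all genes, with 38.6% called higher and 40.6% lower. Of 24 genes for histone gene transcription and histone mRNA 3′ end processing and decay, 10 rose (41.7%) and 8 fell (33.3%). Their median log2 change was 0.08. SLBP, the stem-loop binding protein, fell by 0.68, UPF1, a helicase needed for histone mRNA decay, by 2.48 and SYMPK, a scaffold of the cleavage complex, by 2.07, while SRRT (1.29) and NCBP1 (1.004) of the cap-binding pathway rose. Of 14 histone chaperones, 6 rose (42.9%) and 7 fell (50%), with the H2A.Z chaperone ANP32E at 1.03 and ATRX, a partner of the H3.3 chaperone DAXX, at -1.10. Of 18 S phase genes, 11 rose (61.1%) and 6 fell (33.3%), with a median of 0.32. The replicative helicase subunits MCM2 (1.06) and MCM7 (1.17) were among those that rose, and the licensing factor CDT1 (-2.50) and E2F1 (-1.66) among those that fell.

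**Figure D3:**
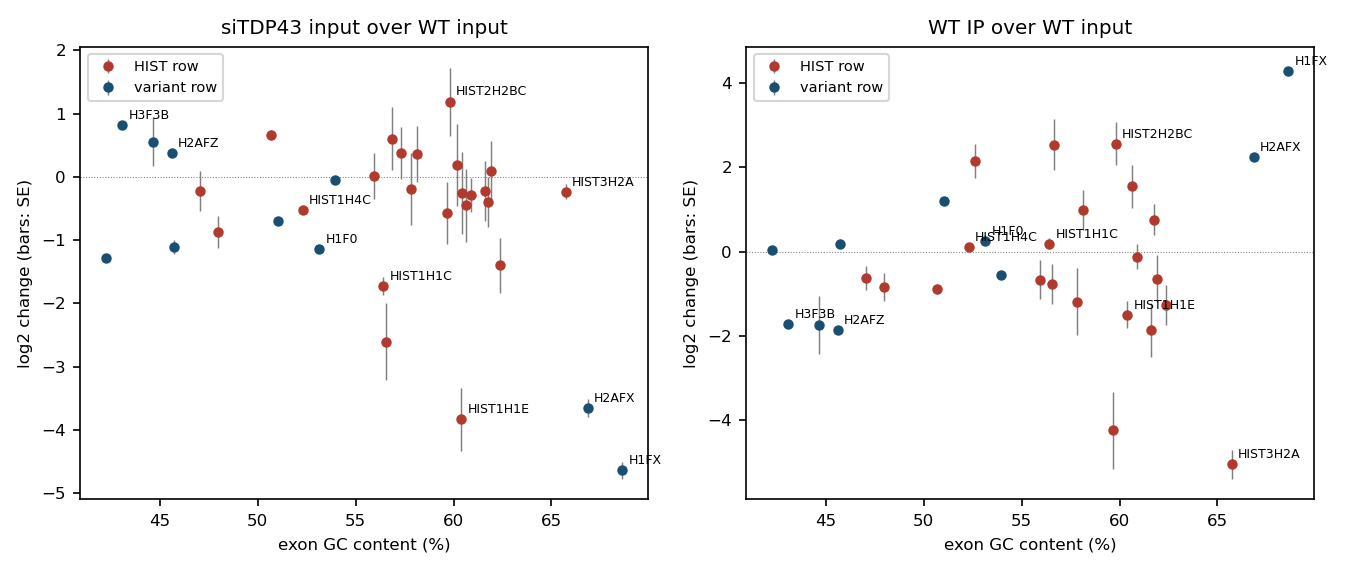
Log2 change (bars, SE) against exon GC content in percent for the histone rows tested, in siTDP43 input over WT input (left) and WT IP over WT input (right), with rows that have a group at 0 left out. H1FX and H2AFX, at the highest GC content, are the lowest variant rows on the left and the highest on the right, while HIST3H2A at a similar GC content is the lowest row on the right.

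GC content moved with these changes across the table. Over the 33 HIST and variant rows tested in the inputs, Spearman's rho between GC content and the log2 change was -0.26, and over all 14036 genes it was -0.32. In WT IP over WT input it was 0.06 over 34 members and 0.36 over all genes. The points share libraries and genes are not independent replicates, so these values are descriptions, and the part of base composition in the members' changes was not tested beyond the fits with a GC trend removed.

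The next comparison asked which histone mRNAs were pulled down with ac4C in WT cells. Within a genotype, a row is called where it passed both thresholds, 0.05 for the adjusted p and 2 for the fold. Against WT input, 3 of 10 variant rows were higher and 3 lower, and of 24 HIST rows 4 were higher and 6 lower, beside 30.2% higher and 27.3% lower of all 14751 genes tested. Against WT IgG, 1 variant row was higher and 1 lower, and 7 HIST rows were higher and 10 lower, beside 35.2% and 17.8%. In the control pull-down against input, 2 variant rows were higher and 1 lower, and 9 HIST rows were higher and 10 lower, beside 24.4% and 36.6%. Many of these HIST rows had a group at 0. Among the 15 without one in IP over IgG, 2 were higher and 8 lower (median log2 change -1.28), beside 3752 and 2500 of 12818 genes. Among the 17 without one in IgG over input, 9 were higher and 3 lower (median 1.66), beside 3524 and 3933 of 12884 genes.

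H2AFX was the only variant row called higher in WT IP than in both WT input and WT IgG. Its levels were 92.3, 101 and 112 CPM in IP, 20.8, 21.7 and 21.9 CPM in input and 8.14 and 13.2 CPM in IgG. The IP libraries lay above all libraries of both controls, with a log2 change over input of 2.25 (SE 0.09, adjusted p 1.04e-16). Against IgG it was 3.24 (SE 0.14, adjusted p 6.91e-16). With the GC trend removed, the change over input was 0.32 and no longer called, and that over IgG was 1.74. Of all genes, 15.6% were higher in IP than in both controls.

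H1FX was pulled down by both antibodies. It rose from 30.6 ± 0.527 CPM in WT input (n = 3) to 544, 595 and 653 CPM in WT IP and 298 and 370 CPM in WT IgG. The log2 change over input was 4.29 in IP (SE 0.08, adjusted p 1.31e-23) and 3.48 in IgG (SE 0.08, adjusted p 4.08e-21), and IP was 0.82 above IgG, under the fold threshold, a value that turned to -0.76 with the GC trend removed. Removing the GC trend gave 1.94 for IP over input. The antisense row H1FX-AS1, which overlaps less than 1% of the H1FX exon, had 27, 41 and 56 counts in WT input, 109, 153 and 92 in WT IP and 0 in both WT IgG libraries. It was at least 16.5-fold higher in IP than in IgG, taking 3 counts per library as the floor. H2AFY was likewise higher in both pull-downs than in input, at 1.21 in IP and 1.01 in IgG, with IP over IgG at 0.20 and overlapping libraries (-0.58 with the GC trend removed). Its IgG call sat at the fold threshold and was lost under 6 of the other settings and without WT input replicate 1 or 3 or WT IgG replicate 2, at 0.84 to 0.997.

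The 2 most abundant variants were depleted from the WT pull-down. H2AFZ was at 465, 476 and 509 CPM in WT IP and 794 and 796 CPM in WT IgG, against 1760 ± 40.6 CPM in input, with a log2 change of -1.86 (SE 0.05, adjusted p 7.36e-21) in IP over input. H3F3B was at 344, 339 and 336 CPM in IP, 816 and 757 CPM in IgG and 1121 ± 4.55 CPM in input. It was the only variant row lower in IP than in IgG by more than the fold threshold (log2 change -1.23, SE 0.05, adjusted p 2.78e-16), beside -0.74 for H2AFZ. With GC and length trends removed, the IP over input values were -0.87 and -0.88, under the fold threshold. H1F0 (0.24 over input, -0.52 over IgG), H2AFV (0.03 and 0.31), H2AFJ (0.19 and -0.37) and H2AFY2 (-0.57 and 0.04) were not called in WT IP. With the GC trend removed, H2AFV and H2AFY2 over IgG were -0.016 and -0.85. H3F3C, at 2, 6 and 8 counts in IP, was called lower than in input (-1.74), and that call was lost without WT input replicate 1 (-1.40) or WT IP replicate 1 (-1.34) or 2 (-1.80).

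For HIST1H4C the control antibody gave more than the ac4C antibody in WT. Its levels were 45.3, 47.1 and 48.1 CPM in input, 50.3, 49.9 and 50.2 CPM in IP and 308 and 270 CPM in IgG. IP and input differed by 0.11 on the log2 scale (SE 0.06, adjusted p 0.126), IgG was 2.65 above input (SE 0.07, adjusted p 2.05e-20) and IP was 2.55 below IgG (log2 change -2.55, adjusted p 1.95e-19). HIST1H1C ran the other way, with 11.7, 13.6 and 15.3 CPM in IP against 4.75 and 5.04 CPM in IgG, a log2 change of 1.44 (adjusted p 3.56e-07), which was 0.44 and not called with the GC trend removed. HIST1H2BK was at 12.8 ± 0.554 CPM in IP (n = 3) and 7.37 and 11.5 CPM in IgG, below its input level in both. HIST3H2A had 333, 470 and 394 counts in input but 8, 2 and 14 in IP (log2 change -5.05, SE 0.34, adjusted p 1.21e-12), and IgG held 0 and 6.

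Some of the remaining HIST rows were higher in the control pull-down than in IP, and several were at 0 in every library of one of them. HIST1H4A had 46 and 44 counts in the WT IgG libraries, 0, 0 and 2 in WT input and 0 in all 12 other libraries, so it was at least 35.5-fold lower in WT IP than in WT IgG. HIST1H1D had 114 and 114 counts in WT IgG, 24, 26 and 23 in WT IP and 4, 12 and 8 in WT input (IgG over input 5.64, SE 0.38, adjusted p 1.95e-12). HIST1H2BD, with 174 and 150 counts in WT IgG, 28, 24 and 17 in IP and 52, 60 and 44 in input, was 4.08 lower in IP than in IgG on the log2 scale (log2 change -4.08, adjusted p 4.27e-12). HIST1H3E had 6 and 6 counts in WT IgG, 1, 2 and 2 in input and 0 in IP, and was at least 4.74-fold lower in IP than in IgG. HIST1H4A and HIST1H3E passed the low-count filter through WT IgG alone. They were thus tested only because IgG was high, and both are among the calls counted above.

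Other rows showed the opposite. HIST2H2BC had 26, 41 and 42 counts in WT IP, 5, 8 and 14 in WT input and 0 in both WT IgG libraries, so it was at least 5.12-fold higher in IP than in IgG and 2.56 higher than in input on the log2 scale (adjusted p 8.44e-05). HIST1H2AM (26, 48 and 18 counts in IP) and HIST1H2BJ (15, 22 and 9) were also at 0 in WT IgG, which placed them at least 4.26-fold and 2.13-fold higher in IP. HIST1H2AG, with 30, 26 and 34 counts in IP, 12, 28 and 6 in input and 2 and 0 in IgG, was with HIST2H2BC the only HIST row called higher in IP than in both controls. Both rows passed the low-count filter only with their IP counts, so these calls are descriptions only. The HIST1H2AG call over input (log2 change 1.55) was lost under 1 of 18 other settings. HIST1H2AC had 9, 39 and 56 counts in WT input and 0 in all WT IP and IgG libraries, and was at least 7.61-fold lower in IP and 3.21-fold lower in IgG. It passed the low-count filter through WT input alone. HIST1H4J had 48, 38 and 47 counts in input, 10, 20 and 8 in IP and 0 in IgG, where it was at least 4.33-fold lower than in input. Rows at 0 in a whole group have no fitted fold, and with bounds in their place the median log2 change of the HIST rows was -0.63 for IP over input and 0.04 for IgG over input.

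**Figure D4:**
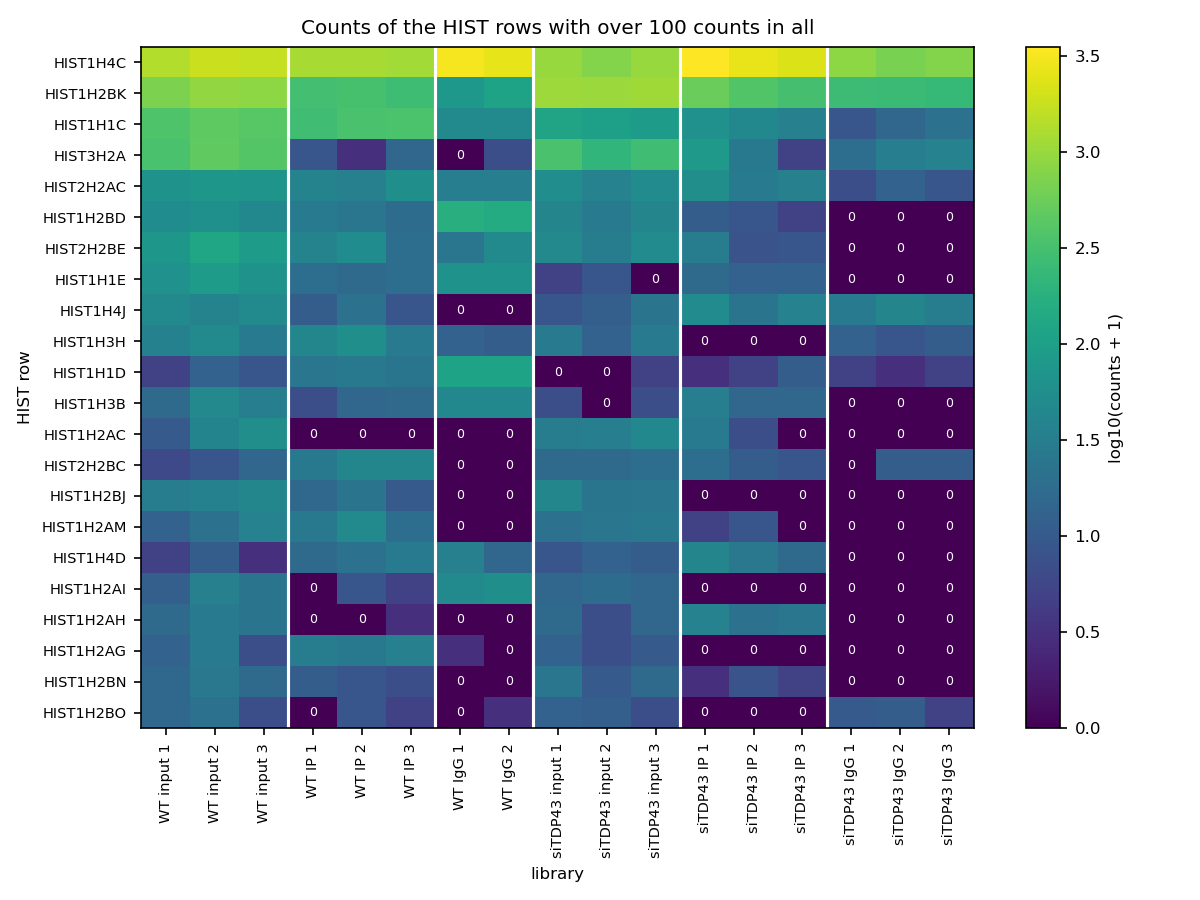
Raw counts (colour, log10 of counts + 1) of the 22 HIST rows with over 100 counts in all, by library, with 0 marking libraries without a count and white lines between groups. Input libraries hold nearly every row, whereas the pull-downs lack some rows in all their replicates.

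Between replicates these small counts varied by more than independent single counts would. Over the HIST rows with a count, the chi-square between replicates of a group, divided by its degrees of freedom, was 2.41 to 4.25. Independent counts would give 1, but counts come mostly in mate pairs, which raises that reference value. How much of the spread exceeds counting error is thus not settled. In the siTDP43 IgG libraries only 4 HIST rows had at least 10 counts in every replicate, against 17 in WT input and 13 in WT IgG. The depth of siTDP43 IgG placed 3 counts at 1.07 to 1.21 CPM, so a row whose level lies below that could go undetected there.

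The same comparison in siTDP43 cells gave more HIST rows called above the input than below it in both pull-downs. Most of those above it were tested only through pull-down counts, as given below. Against siTDP43 input, 5 of 10 variant rows were higher and 2 lower in IP, and of 17 HIST rows 8 were higher and 3 lower, beside 26.8% and 25.4% of all 12746 genes tested. In IgG over input, 5 variant rows were higher and 2 lower and 8 HIST rows higher and 3 lower, beside 24.7% and 41%. In IP over IgG, 1 variant row was higher and 2 lower and 7 HIST rows higher and 5 lower, beside 34% and 15%. Of the 7 HIST rows called higher than IgG, each was at 0 in all siTDP43 IgG libraries. Among the 8 rows with a count in both groups 0 were higher and 3 lower, beside 2795 and 1774 of 10595 genes. Some of the HIST rows called in siTDP43 passed the low-count filter through IP alone or through IgG alone, as said below. Of the 8 called higher in IP over input, only HIST1H4C and HIST2H2AC met the filter on their input counts. In IgG over input only these and HIST1H2BK did. The remaining higher calls are of rows tested through their pull-down counts and are descriptions only. With no low-count filter more HIST rows were called lower, as given at the end. Total count scaling in place of TMM shifted the median of all genes by -0.34 in IP over input and -0.55 in IgG over input, and moved the share of higher calls among all calls from 51.3% to 39% and from 37.6% to 26.9%.

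**Figure D5:**
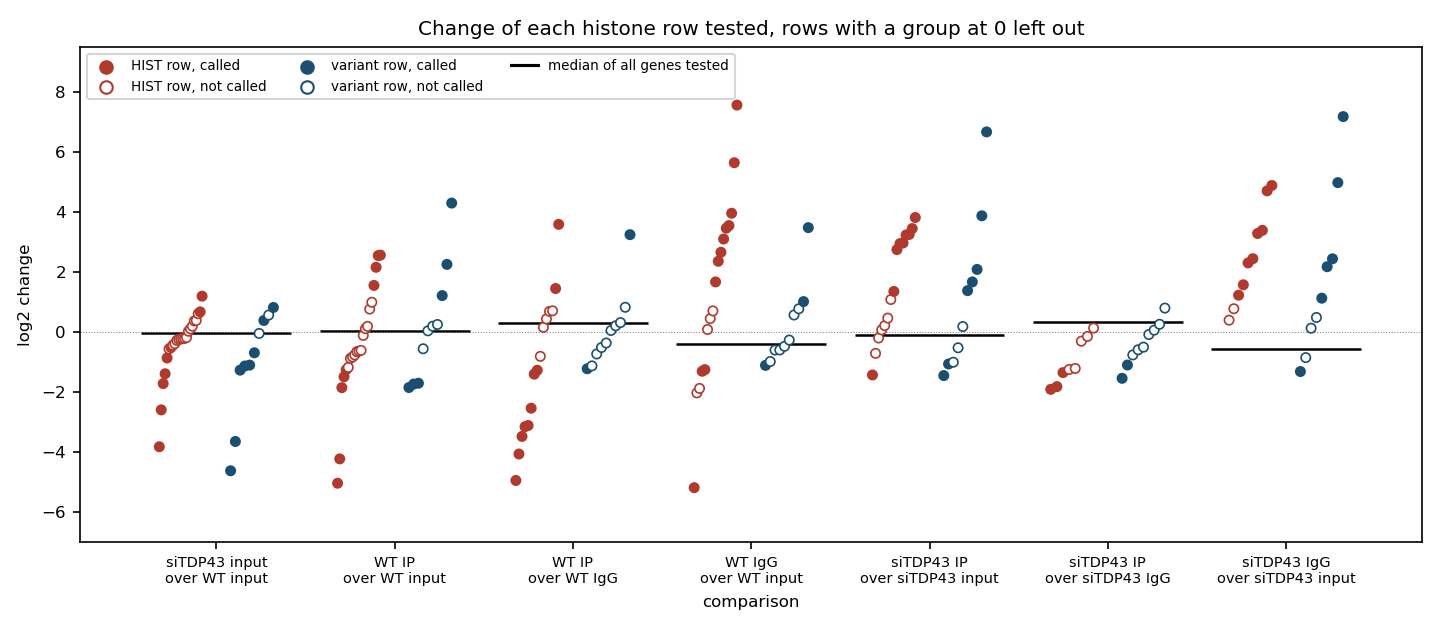
Log2 change of each HIST and variant row tested in the 7 comparisons between a pair of groups (filled points, called), with the median of all genes tested as a line and rows with a group at 0 left out. HIST rows spread to both sides in WT, and in siTDP43 IP and IgG over input most called rows lie above the line. Many of the HIST rows among them were tested only through their pull-down counts.

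H1FX, nearly lost from the siTDP43 input, reached 126, 113 and 98.3 CPM in siTDP43 IP and 157, 132 and 168 CPM in siTDP43 IgG. The log2 change over input was 6.67 in IP (SE 0.15, adjusted p 3.09e-20) and 7.18 in IgG (SE 0.16, adjusted p 8.48e-21), and IP lay 0.51 below IgG (log2 change -0.51, under the fold threshold). H2AFX was at 23.8, 20.5 and 22.7 CPM in IP and 44.8, 54.2 and 38.4 CPM in IgG, with changes of 3.87 and 4.98 over input. Here IP was lower than IgG (log2 change -1.11, SE 0.18, adjusted p 1.44e-05), a call lost without siTDP43 IgG replicate 2 (-0.97) and with total count scaling (-0.90). With the GC trend removed, H1FX and H2AFX were at 3.92 and 1.74 in IP over input.

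H2AFY, H2AFJ and H2AFV were also higher in both siTDP43 pull-downs than in input. H2AFY was at 272, 257 and 251 CPM in IP and 224, 288 and 279 CPM in IgG against 68.5 ± 2.77 CPM in input, with changes of 2.08 (adjusted p 6.43e-16) and 2.17. H2AFJ gave 1.66 and 2.44, and H2AFV 1.37 and 1.12, of which the last was not called with total count scaling (0.57). None of the 3 was called in IP over IgG, where H2AFV was 0.25, or -0.80 with the GC trend removed.

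H2AFZ was at 2591, 2259 and 2094 CPM in siTDP43 IP and 2122, 2056 and 2169 CPM in IgG, near its input level of 2279 ± 56.6 CPM, and none of its 3 comparisons in siTDP43 was called. Its direction depended on the setting, with 0.18 and 0.12 for IP and IgG over input against -0.16 and -0.43 with total count scaling, and 0.06 for IP over IgG against -0.88 with the GC trend removed. H3F3B was at 1219, 1222 and 1207 CPM in IP and 655, 673 and 676 CPM in IgG, both below the input (log2 change -0.53 for IP, under the fold threshold, and -1.32 for IgG). Removing the GC trend turned the latter to 0.087, not called, and removing GC and length trends turned the former to 0.21. H1F0 fell to 101, 82 and 96.4 CPM in IP from 286 ± 7.76 CPM in input (log2 change -1.46, SE 0.08, adjusted p 3.69e-13). H2AFY2, at 30.7, 24.9 and 27 CPM in IP and 74.5, 72.8 and 83.3 CPM in IgG, was lower in IP than in both input (-1.07) and IgG (-1.55, SE 0.12, adjusted p 3.44e-10).

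HIST1H4C rose in both siTDP43 pull-downs. It was at 31.4, 30.3 and 35.6 CPM in input, 261, 273 and 286 CPM in IP and 320, 273 and 274 CPM in IgG. The log2 changes over input were 3.23 (SE 0.09, adjusted p 9.55e-19) and 3.38 (SE 0.09, adjusted p 5.36e-19), and IP and IgG overlapped (-0.15, adjusted p 0.106). HIST1H2BK was at 40.1, 38.5 and 38.9 CPM in IP, beside 37.8 ± 3.97 CPM in input, and at 99.9, 104 and 82.9 CPM in IgG, so that IP was lower than IgG (log2 change -1.36, SE 0.13, adjusted p 4.27e-09). HIST1H1C, which encodes H1.2, had 62, 44 and 34 counts in IP and 8, 14 and 20 in IgG, with no call in siTDP43. HIST2H2AC, an H2A gene, had 54, 36 and 50 counts in input, 55, 29 and 34 in IP and 6, 12 and 8 in IgG, and was higher than in input in both pull-downs (log2 changes 1.35 and 1.22), values that were -0.11 and -0.22 with GC and length trends removed.

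No variant row and 4 HIST rows were called higher in siTDP43 IP than in both controls, namely HIST1H3B (32, 14 and 14 counts in IP), HIST1H1E (16, 12 and 12), HIST1H4D (40, 25 and 16) and HIST1H2AH (36, 20 and 24). Of all genes, 10.3% were. All 4 were at 0 in the shallow siTDP43 IgG libraries, and their bounds over IgG were at least 1.64-fold, 1.15-fold, 2.22-fold and 2.27-fold. Each passed the low-count filter through its IP counts alone. A row was thus tested only because its IP counts were high, so these calls are descriptions only. HIST1H3H and HIST1H2BO were at 0 in all siTDP43 IP libraries with 12, 8 and 10 and 9, 10 and 4 counts in IgG, so they were at least 12.4-fold and 9.74-fold lower in IP. Both passed the low-count filter only with their IgG counts. HIST1H2BJ and HIST1H2AG, present in every WT IP library, were at 0 in all siTDP43 IP and IgG libraries. HIST2H2BE and HIST1H2BD were at 0 in siTDP43 IgG, at least 1.30-fold and 1.13-fold lower than in input.

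The difference in pull-down between the genotypes was tested as an interaction over all 17 libraries, called at an adjusted p under 0.05. For IP over input, 7 of 10 variant rows were higher and 2 lower in siTDP43 than in WT, and of 29 HIST rows 11 were higher and 4 lower, beside 31.5% and 36.3% of all 15165 genes. The median log2 difference was 1.11 over variant rows, 0.78 over HIST rows and -0.19 over all genes, and among the 16 HIST rows with no group at 0 it was 1.07, with 8 called higher and 1 lower. Of all 12980 genes with no group at 0, 4579 were higher and 4591 lower, with a median of -0.03. For IP over IgG, 3 variant rows were higher and 3 lower, and 8 HIST rows were higher and 6 lower, beside 34.9% and 25.9%. Only 6 HIST rows had no group at 0 there, of which 2 were higher and 2 lower, beside 4262 and 3426 of 10306 genes.

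HIST1H4C had the most precise change of the HIST rows. Its enrichment over input was 2.98 higher in siTDP43 (SE 0.11, adjusted p 1.04e-23), and over IgG 2.45 higher (SE 0.11, adjusted p 4.02e-20). The IP level was 50.1 ± 0.241 CPM in WT and 273 ± 12.8 CPM in siTDP43, the input level 46.8 ± 1.43 and 32.4 ± 2.84 CPM (n = 3 each), and the IgG level was 289 CPM in both (SD 27.1, n = 2, and SD 26.9, n = 3). HIST3H2A gave 3.48 over input (SE 0.60, adjusted p 4.29e-06), with 8, 2 and 14 counts in WT IP and 78, 26 and 4 in siTDP43 IP. Without siTDP43 IP replicate 1 this was 2.51 and without WT IP replicate 3 it was 4.17.

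Among variants, siTDP43 had the higher IP over input values for H1FX (2.23, SE 0.18, adjusted p 3.07e-13), H2AFZ (1.89, SE 0.08, adjusted p 8.58e-22), H2AFX (1.48, or 0.43 and not called with limma), H2AFJ (1.33), H2AFV (1.19), H3F3B (1.03) and H2AFY (0.73). It was lower for H1F0 (-1.85, SE 0.09, adjusted p 1.74e-19) and H2AFY2 (-0.65, which was -0.09 and not called with the GC trend removed). Over IgG, H2AFX was 4.29 lower in siTDP43 (log2 difference -4.29, SE 0.23, adjusted p 1.68e-18), H2AFY2 -1.54 and H1FX -1.27, while H3F3B was 2.08 higher and H2AFZ 0.85 higher. H2AFJ, H2AFV, H2AFY and H1F0 were not called over IgG. For H1FX and H2AFX the difference thus had opposite signs over input and over IgG.

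The smaller HIST rows gave the largest fitted differences, at few counts. HIST1H4E (12, 8 and 8 counts in siTDP43 IP, 0 in WT IP and 2, 6 and 12 in WT input) and HIST1H2AC (28, 6 and 0 in siTDP43 IP, 0 in WT IP) were called higher over input. HIST1H3H and HIST1H2AG (30, 26 and 34 counts in WT IP and 0 in siTDP43 IP) were called lower. Over IgG, HIST1H3B and HIST1H2BD were called higher, with 44 and 44 and 174 and 150 counts in WT IgG and 0 in siTDP43 IgG, and HIST1H3H and HIST1H2BO were called lower, each at 0 in siTDP43 IP. Each of these has a group at 0, so no fold is given. HIST1H4E passed the low-count filter only with its siTDP43 IP counts and HIST1H2AG only with its WT IP counts.

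The other genes of histone supply and S phase were also called in both directions in the pull-downs. In WT IP over input, 6 of the 24 supply genes were higher and 6 lower, 9 of the 14 chaperones higher and 3 lower, and 2 of the 18 S phase genes higher and 10 lower, beside the 30.2% higher and 27.3% lower of all genes. The control pull-down over input gave 7 and 6, 8 and 2, and 4 and 6, beside 24.4% and 36.6% of all genes. IP over IgG gave 4 and 5, 2 and 1, and 0 and 6, beside 35.2% and 17.8%. The chaperone genes ATRX (5.68), CHAF1A, the large subunit of CAF-1 (4.91), and UBN1, a subunit of the HIRA complex (3.84), were among those higher in WT IP than in input. In siTDP43 IP over input the counts were 6 and 6, 5 and 3, and 2 and 6, beside 26.8% and 25.4% of all genes. UPF1 was at 1.58 in WT and 2.93 in siTDP43, and SLBP at -0.53, under the fold threshold, in WT and 1.13 in siTDP43. Enrichment over input was lower in siTDP43 than in WT for 10 of the 14 chaperone genes and higher for 2, beside 36.3% and 31.5% of all genes. Over IgG, 6 were lower and 5 higher, beside 25.9% and 34.9% of all genes.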

How the data were processed

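The authors isolated poly(A) RNA, built Smart-seq2 libraries, trimmed reads with Trim Galore 0.6.7, aligned them with STAR 2.7.10a and counted uniquely mapped reads per gene with featureCounts 2.0.2. The deposited table holds raw counts with no normalization. The study's methods give hg19 for HEK293T, whereas the submitters' processing notes name a mouse build. Exon lengths computed from the table's coordinates matched all 23368 rows, and 23093 rows lay on GRCh37 chromosomes used here. The annotation release and the strand setting are not given in the sources used here.

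Groups and replicate numbers came from the sample labels. The test was that of edgeR 4.0.16, run in R 4.3.3 (quasi-likelihood F test, TMM, filterByExpr with a minimum count of 10, Benjamini-Hochberg over all genes tested). Fits held the 6 input, 8 WT, 9 siTDP43 or, for interactions, all 17 libraries. The threshold on the adjusted p was 0.05, with a fold above 2 also asked within a genotype. CPM used TMM library sizes over the 17 libraries. A fold against a group at 0 in every library was set against a floor of 3 counts per library. On simulated data with genes changed by 2 on the log2 scale, 100% were recovered in each of the 4 fits, with 0 to 6.98% of calls false. The changed genes averaged at least 50 counts and all genes were given the same spread. These rates therefore do not cover the HIST rows, most of which have fewer counts.

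Named genes were the variant rows tested, the 10 HIST rows highest per kilobase, and in each comparison the 2 members with the largest called rise and the 2 with the largest called fall without overlap between libraries, with list genes named only where called. Members and lists were chosen with earlier results of these data known. Alternatives were DESeq2 1.42.0, edgeR with DESeq2 size factors or with totals in place of TMM, keeping every row with a count or only rows averaging 50 counts, the replicate number as a block, limma 3.58.1 on log2(FPKM + 1), counts halved and rounded up, GC or GC and length trends removed, all 17 libraries in 1 fit, and leaving out each library. Sequences are from GRCh37, and 86 of 91 members matched 1 current symbol in the RefSeq table. No spike-in scaling was applied, so enrichment is relative to the other genes of a library.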

Additional observations from a re-analysis of the deposited data

Results flagged for a closer look

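The effect of the pull-down ran in opposite directions in the genotypes for 4 results with counts in every group compared, each called in WT, in siTDP43 and in the test of the difference. For H2AFX, IP over IgG was 3.24 in WT and -1.11 in siTDP43 on the log2 scale, a difference of -4.29 (edgeR adjusted p 1.68e-18), and the siTDP43 call was lost with total count scaling (-0.90), with limma (-0.84) and without siTDP43 IgG replicate 2 (-0.97). For HIST1H1E, IP over input was -1.50 in WT and 3.25 in siTDP43, a difference of 4.62 (adjusted p 1.97e-06), and the WT call was lost with limma (-0.89). For HIST1H4J it was -1.27 and 2.96, a difference of 4.09 (adjusted p 1.69e-06), in a row of which 10.5% of 100-base windows are unique, and the WT call was lost with limma (-0.88) and without WT input replicate 1 (-1.11) or WT IP replicate 1 (-1.11) or 3 (-1.05). For HIST1H2AH it was -4.24 and 2.74, a difference of 6.78 (adjusted p 8.85e-07), with 0, 0 and 2 counts in WT IP. In siTDP43, HIST1H1E and HIST1H2AH passed the low-count filter through IP alone, and HIST1H4J met it on its IP and IgG counts but not on its input counts. In WT, HIST1H2AH passed it through input alone. These calls are thus descriptions only. A further 6 opposite pairs, all over IgG, had a group at 0 in every library and are given no value. Groups held 2 or 3 libraries, so no library was tested as an outlier.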

How the results depend on the processing

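Of 752 recomputed counts of called histone rows, 649 stayed within 1.5 times the reported count and 103 moved. Of 5499 recomputed log2 values of single rows, 5104 kept sign and call, 153 lost the call, 105 gained one, 42 changed sign with an adjusted p under 0.05 before or after, and 95 changed sign without one. The cause was not tested except where a setting tests fewer or more rows. Rows with few counts and the siTDP43 IgG libraries, at 3013989 to 3436811 counts, limit most HIST calls.

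Most of the 42 came with the GC trend, or the GC and length trends, removed, given in that order. In siTDP43 input over WT input: H2AFY2 was 0.19 and 0.12, HIST3H2A 0.94 and 1.21, and HIST2H2AC 0.67 with both trends. In WT IP over WT IgG: H1FX was -0.76 and -0.72, H2AFV -0.016 and -0.013, H2AFY -0.58 and -0.62, H2AFY2 -0.85 and -0.89 and HIST1H2BK -0.34 and -0.14. In WT IgG over WT input: H2AFV was 0.51 and 0.21, H2AFY2 0.012 and 0.45, H3F3B 0.31 and 0.76, and H2AFZ 0.22 with both. In siTDP43 IP over siTDP43 input: HIST2H2AC was -0.11 and H3F3B 0.21 with both, and H2AFZ -0.16 with total count scaling and -0.17 with limma. In siTDP43 IP over siTDP43 IgG: H2AFV was -0.80 and -0.84, H2AFZ -0.88 and -0.39 and H3F3B -0.23 and -0.30. In siTDP43 IgG over siTDP43 input: H2AFY2 was -0.0703 with total count scaling and -0.071 with limma, H2AFZ was -0.43 with each, H3F3B 0.087 and 0.52, HIST3H2A -0.90 and -2.28, and with both trends HIST2H2AC was -0.22 and H1F0 0.29.

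With a mean of at least 50 counts, fewer rows were tested, and HIST rows called higher and lower numbered 1 higher in siTDP43 input over WT input, 0 and 2 in WT IP over WT input, 1 and 4 in WT IP over WT IgG, 3 and 3 in WT IgG over WT input, 1 and 1 in siTDP43 IP over siTDP43 input, 0 and 2 in siTDP43 IP over siTDP43 IgG, 2 and 0 in siTDP43 IgG over siTDP43 input, 3 and 0 in the interaction over input and 1 and 2 in that over IgG. Variant rows called lower were then 1 in siTDP43 IP and in siTDP43 IgG over input, and 0 were higher in siTDP43 IP over IgG. With no low-count filter, HIST rows called lower were 12 in WT IP over input, 10 in siTDP43 IP over input, 8 in siTDP43 IP over IgG and 5 in siTDP43 IgG over input. With all 17 libraries in 1 fit they were 10, 9 and 7 in WT IP, siTDP43 IP and siTDP43 IgG over input.

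With GC and length trends removed, 8 HIST rows were higher in the input, 0 variant rows lower in WT IP over input, and 5 HIST rows higher and 6 lower in siTDP43 IgG over input. With either trend removed, variant rows called lower were 3 in WT IP over IgG, 4 in siTDP43 IP over IgG, 1 in siTDP43 IgG over input, and 1 and 6 in the interactions over input and over IgG, variant rows called higher were 4 in WT IgG over input, and in siTDP43 IP over input 1 was lower with both trends. With limma, HIST rows were 3 lower in WT IP over input, 4 higher in siTDP43 IP over IgG, and 14 higher and 10 lower in the interaction over IgG. With counts halved, HIST rows called higher were 1 in the input, 5 in siTDP43 IP over input, 2 over IgG and 5 in siTDP43 IgG over input, where 0 were lower and 1 variant row was lower. With total count scaling, 1 HIST row was higher in the input and 5 lower in siTDP43 IgG over input, and in siTDP43 IP over IgG 2 variant rows were higher and 1 lower, as was 1 with limma. With DESeq2, 1 HIST row was higher in the input, and variant rows lower in the interaction over IgG were 7, or 6 with its size factors. In WT IgG over input 1 variant row was higher under DESeq2, its size factors, total count scaling, no filter, limma and the joint fit, and 2 were lower under these except limma. In siTDP43 IP over IgG 0 variant rows were higher under DESeq2, no filter, the block, limma, halved counts, both trend removals and the joint fit.

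Leaving out each library gave 1 to 2 HIST rows higher in the input, 3 to 5 lower in siTDP43 IP and in siTDP43 IgG over input, 1 to 2 variant rows lower in WT IP over IgG, 1 to 2 higher and 1 to 2 lower in WT IgG over input, and 0 to 1 higher and 1 to 2 lower in siTDP43 IP over IgG. Without a WT IgG library, the remaining one is assumed to vary like the other groups. With the replicate number as a block, 1 HIST row was higher in the input and 0 variant rows were higher in siTDP43 IP over IgG. Residuals of libraries with the same number correlated at -0.0213 to 0.0269 and gave no sign of pairing. With so few libraries per group this cannot exclude that libraries of the same number share an RNA sample.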
